A study of Rattus norvegicus with 48 samples.

Results

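Liver RNA of rats on the control diet was compared between 8 animals killed after 8 weeks and 8 other animals killed after 4 weeks of feeding, which are 16 of the 48 animals of the series and were chosen by diet and week alone. All animals were male Wistar rats (RjHan:WI), supplied at 6 weeks of age and 200 to 250 g and kept in pairs under a 12 h light and dark cycle. The control diet was choline-supplemented and L-amino acid-defined (CSAA; 12% protein, 16% fat and 72% carbohydrates by energy). The other animals were on CSAA for 12 weeks, or for 4, 8 or 12 weeks on the choline-deficient counterpart with 1% cholesterol (CDAA; 11% protein, 31% fat and 58% carbohydrates by energy), which held 0.17% methionine against 0.4% in CSAA. Each group had 8 animals. No animal was sampled more than once, so each value is from 1 liver. The question was how far the liver transcriptome of the controls moved over time without the diet that induces steatohepatitis.

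Choline is needed for phosphatidylcholine, which the liver builds into the lipoproteins that carry triglycerides out of the hepatocyte. Diets without choline lead to fat in hepatocytes, inflammation and fibrosis, and the choline-supplemented diet of the same amino acid base serves as the control. Young rats still grow during such a study, and the liver changes its expression of sex-dependent, growth-dependent and feeding-dependent genes as they mature. The hour of the day at which the livers were taken, which sets the level of clock genes, is not given in the sources used here.

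Genes are listed in the data by Ensembl identifier without names, and none of the identifiers could be paired with a symbol. Genes are therefore described by their values, by their numbers and by 4 identifiers, and their functions, the pathways they belong to and their sequences are not given here. For the same reason the labelled tissue was not checked against hepatocyte markers. In RNA of whole liver, fewer cells of a type and less RNA per cell cannot be told apart.

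The reads on genes overlapped between the weeks. The lowest count was 13619274 and the highest 21246676 at week 4, and 15581713 and 20567511 at week 8, and the means differed with a two-sided exact permutation p of 0.371. A single gene, the same one in all 16 livers, took the most reads. It took 13.2 ± 1% of the reads at week 4 and 11.5 ± 0.992% at week 8 (SD over 8 animals each; exact permutation p = 0.00715, adjusted p = 0.0286 over 8 library measures). Among 120 pairs of the 16 libraries, the smallest chi-square per gene was 14.5, far above the value near 1 that the sampling of reads gives, so no library was counted under more than 1 animal. The numbers in the sample titles run in order through the weeks, and what they stand for is not given. The sequencing pools, the cages and the order of processing are not given either. An effect of the week therefore cannot be told apart from one of these. Animal 504 of week 8, and to a lesser degree animal 502, stood apart from the other controls. The genes called, the PCA scores on axes fitted to all 16 animals, and the diet axis are therefore also given without one or both of them.

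Few genes passed the thresholds in the control liver between week 4 and week 8. Of 12756 genes tested, 6 (0.0470%) passed an adjusted p under 0.01 together with a fold change of at least 2, of which 4 (0.0314%) were higher and 2 (0.0157%) were lower at week 8. With an adjusted p under 0.05 and no limit on the fold change, 321 genes (2.52%) changed, 163 (1.28%) of them higher and 158 (1.24%) lower at week 8. At an unadjusted p under 0.05 there were 2454 of the 12756 genes, a larger share than the 0.05 expected without any change. Genes that were not called can therefore still have changed by small amounts. All these counts come from edgeR's quasi-likelihood test with Benjamini-Hochberg adjustment, fitted to all 48 animals at once so that the 6 groups share the estimate of the spread. A fit to the 16 compared animals alone gave 1 and 38 genes by the same rules, and DESeq2 gave 60 and 579. Of the 6 called genes, 1 kept its call in the fit to the 16 animals, that with the smallest rise, while the other 5 had adjusted p values between 0.018 and 0.084 in edgeR. Scaled to library size alone, without TMM factors, 381 genes were higher and 79 lower at an adjusted p under 0.05, whereas 163 were higher and 158 lower with TMM.

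The size of the changes was small as well. The median absolute log2 fold change over all 12756 genes was 0.14, the 95th percentile was 0.745, and 1% of the genes exceeded 1.67. The median SE of a log2 fold change was 0.129. For 11149 genes (87.4%) the 95% interval of the change lay within 2-fold in both directions, and for 7862 (61.6%) it lay within 1.41-fold. Changes beyond these bounds were outside the intervals of these genes. In contrast, 390 genes had a fitted fold change of at least 2 in either direction, of which 6 passed the adjusted p of 0.01.

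**Figure D1:**
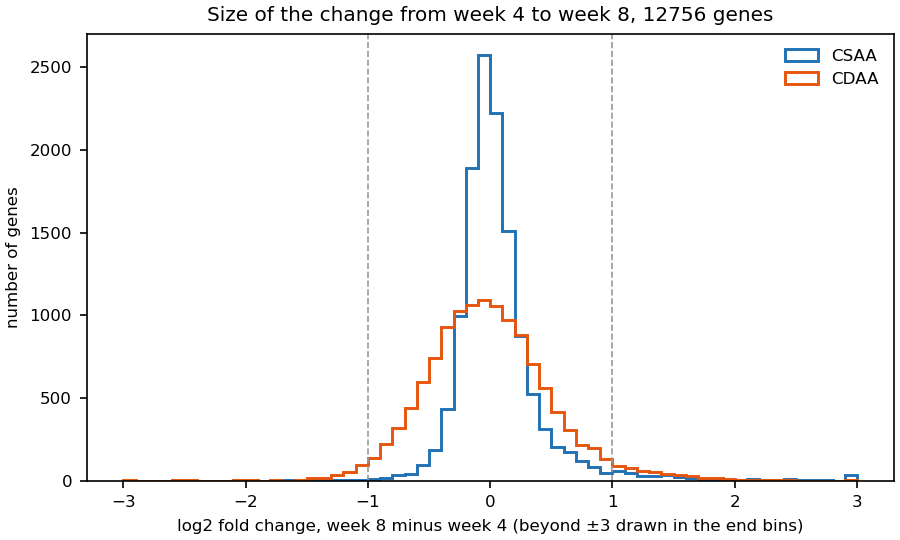
Histogram of the log2 fold change from week 4 to week 8 (x axis, bins of 0.1) over 12756 genes (y axis, number of genes) on CSAA and on CDAA. Dashed lines mark a change of 2-fold. The CSAA values are packed around 0 with a median absolute value of 0.14, against 0.315 on CDAA.

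The spread of the fold changes depended on the abundance of the gene. CPM is here the count scaled to the reads on genes of the library times its TMM factor. Genes were sorted into 5 equal parts by their mean log2 CPM over all animals of the series. This ranking includes the animals on CDAA and is not that of the control livers alone. The SD of the log2 fold changes was 0.695 in the lowest part, below 2.69 CPM, and 0.334, 0.279, 0.234 and 0.207 in the parts above it. The share of genes with an adjusted p under 0.05 was 1.72% in the lowest part and 3.18% in the highest. The 100 most abundant genes of the same ranking took 47.2 to 54.3% of all reads of a liver. Their log2 fold changes lay between -0.955 and 0.655, 97 of them were below 0.5 in size, and 2 changed at an adjusted p under 0.05, both lower at week 8.

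The gene with the largest rise among the 6 called genes was high in a few animals of week 8. At week 4 its level was 0.631 CPM in the lowest animal, 1.03 in the median and 3.36 in the highest. At week 8 it was 2.51, 6.27 and 117 CPM. Animals 504, 502, 501 and 503 had 117, 84.7, 21.2 and 8.72 CPM, whereas the other 4 animals stayed between 2.51 and 3.82 CPM, and the groups overlapped. The log2 fold change was 4.33 ± 0.886 (SE) with an adjusted p of 0.00873 in edgeR. Without animals 502 and 504 it was 2.25 with an adjusted p of 0.141, and it was called in 8 of the 16 edgeR fits that leave out 1 control animal of week 4 or 8. It was not called by limma-voom, with 3.12 and an adjusted p of 0.106, or with sample quality weights, with 2.75 and an adjusted p of 0.0947. On CDAA the same gene was high in every animal, with 35.1 to 463 CPM at week 4, 136 to 278 at week 8 and 125 to 250 at week 12. In CSAA animals of week 12 the median was 1.35 CPM and the highest, animal 908, had 83 CPM.

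ENSRNOG00000013464 rose in the control animals. Its level was 1.02 to 4.5 CPM at week 4 with a median of 1.93, and 3.94 to 12.2 CPM at week 8 with a median of 5.56. The groups overlapped, with 6 of 8 week 8 animals above every week 4 animal. The log2 fold change was 1.57 ± 0.272 (SE) with an adjusted p of 0.00143 in edgeR, and the gene was called in all 16 edgeR fits with 1 control animal left out. Without animal 504, the highest of week 8, the log2 fold change was 1.38 (adjusted p = 0.00677, edgeR). The call was lost in the edgeR fit to the 16 compared animals (adjusted p = 0.0377) and in limma with sample quality weights (adjusted p = 0.0105). At week 12 of CSAA the median was 2.79 CPM, between the medians of the earlier weeks. On CDAA it fell over the same time step, from a median of 4.15 CPM to 1.99 CPM, by 1.05 on the log2 scale (adjusted p = 0.000917, edgeR).

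ENSRNOG00000016219 rose without overlap between the groups. At week 4 it was found at 9.39 to 18.3 CPM with a median of 12.6, and at week 8 at 20.8 to 65.2 CPM with a median of 27.1. The highest 3 animals of week 8 were 504, 502 and 501 with 65.2, 52.5 and 45 CPM. The log2 fold change was 1.46 ± 0.238 (SE) with an adjusted p of 0.000916 in edgeR. Without animals 502 and 504 it was 1.12 with an adjusted p of 0.0117, and in the edgeR fit to the 16 compared animals the adjusted p was 0.018. The CSAA median of week 12 was 23.2 CPM. All CDAA groups were higher, with medians of 125 CPM at weeks 4 and 8 and 60.3 CPM at week 12.

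The 4th gene that rose, with the smallest rise, was also separated between the groups, with 4.46 to 7.57 CPM at week 4 (median 5.93) and 10.4 to 17 CPM at week 8 (median 13.2). Animal 506 was the highest and animal 504 was near the median of its group. The log2 fold change was 1.15 ± 0.197 (SE), with an adjusted p of 0.00143 in edgeR, and the gene was called in all 16 fits with 1 animal left out. By week 12 the CSAA animals ranged from 2.93 to 18.6 CPM with a median of 7.41 and thus covered the values of both earlier weeks.

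Of the 2 genes that fell, ENSRNOG00000036942 was called in all 16 fits with 1 animal left out. Its level was 2.17 to 8.02 CPM at week 4 (median 3.92) and 0.944 to 2.48 CPM at week 8 (median 1.6), with 6 of 8 week 8 animals below every week 4 animal. The log2 fold change was -1.5 ± 0.248 (SE), 2.84-fold lower, with an adjusted p of 0.000916 in edgeR, or 0.0369 in the edgeR fit to the 16 compared animals. At week 12 the CSAA animals had 0.467 to 1.04 CPM, with a median of 0.644 below that of week 8. On CDAA the medians were 5.23, 2.85 and 1.69 CPM at weeks 4, 8 and 12, and the step from week 4 to week 8 was -0.98 on the log2 scale (adjusted p = 0.000363, edgeR).

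ENSRNOG00000000503, which was named after its values were seen, fell from 11.3 to 32.9 CPM at week 4 (median 26.2) to 5.12 to 22.2 CPM at week 8 (median 9.87). The groups overlapped through animals 503 and 505 of week 8, with 22.2 and 18.5 CPM, and animals 101, 103 and 107 of week 4, with 11.3, 14.8 and 20.5 CPM. The log2 fold change was -1.06 ± 0.216 (SE) with an adjusted p of 0.00853 in edgeR, and the gene was called in 7 of 16 fits with 1 animal left out, where the adjusted p went up to 0.0341. The CSAA animals of week 12 had 3.25 to 7.03 CPM with a median of 4.96. On CDAA the median was 7.81 CPM at week 4, and 7.3 and 7.86 CPM later.

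**Figure D2:**
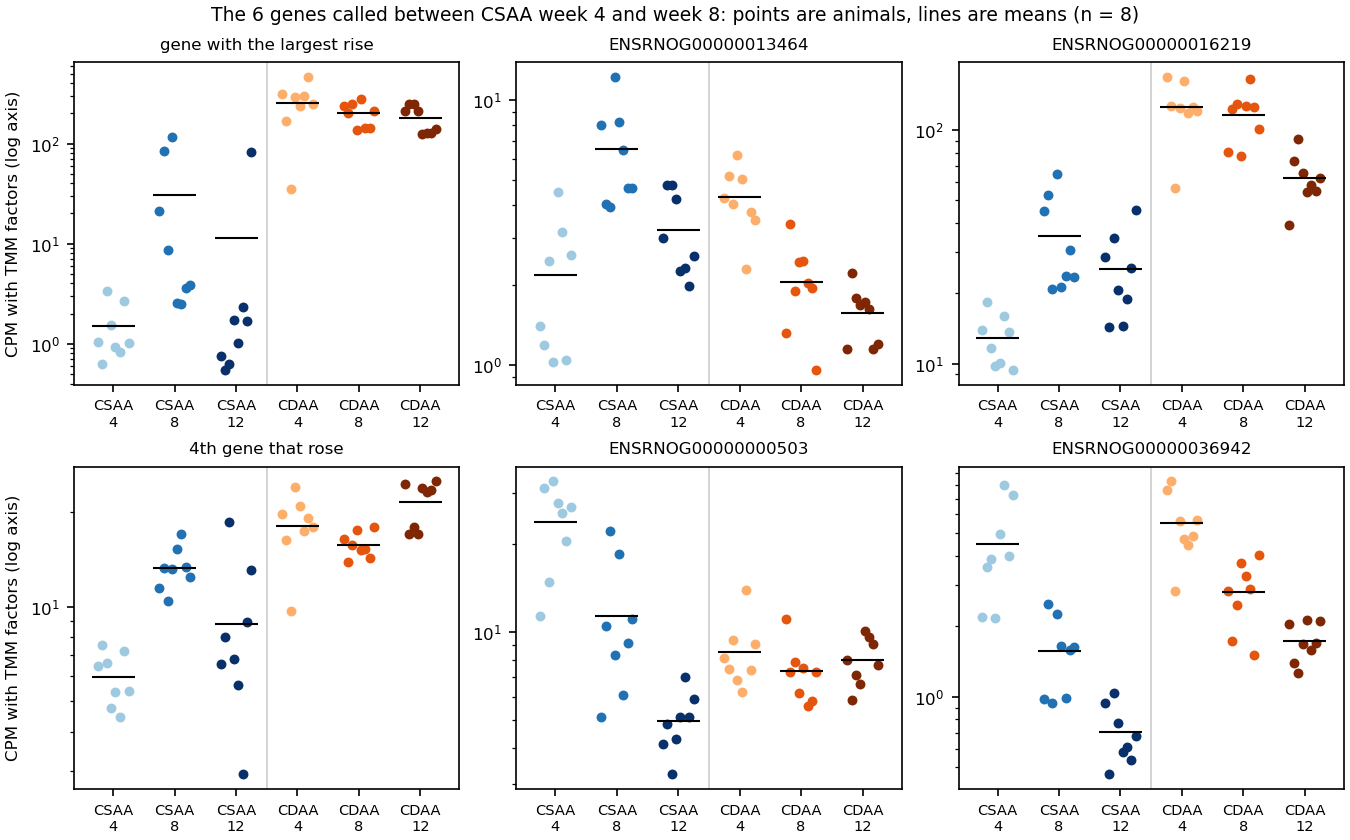
CPM with TMM factors (y axis, log scale) of the 6 called genes in each animal of the 6 diet and week groups (x axis); points are animals and lines are arithmetic means (n = 8). For the gene with the largest rise, the CSAA week 8 mean is set by animals 502 and 504 with 84.7 and 117 CPM; ENSRNOG00000016219 and the 4th gene that rose do not overlap between CSAA week 4 and week 8.

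The 321 genes with an adjusted p under 0.05 were mostly changed by less than 2-fold. The 163 higher genes had a median log2 fold change of 0.669 (0.193 to 4.73), 58 of them with at least 2-fold, and the 158 lower genes had a median of -0.394 (-2.62 to -0.213), 14 of them with at least 2-fold. The higher genes were less abundant, with a median of 11.5 CPM against 28.2 CPM of the lower genes and 13.1 CPM of all genes tested. In 18 of 12756 genes (0.141%) the CPM values of the 8 animals of week 8 did not overlap with those of week 4, and 16 of these were among the 321, with 7 higher and 9 lower. Since the 321 genes were chosen on these animals, their levels at week 12 are a description only. The median log2 CPM of the higher genes went from 3.02 (week 4) through 3.75 (week 8) to 3.29 (week 12), and that of the lower genes was 5, 4.6 and 4.79. The week 12 mean was between those of weeks 4 and 8 in 75 of the higher and 89 of the lower genes, further along in 40 and 23, and back at or past the week 4 mean in 48 and 46. The next time step, CSAA week 12 against week 8, shares the week 8 animals and had 355 called genes (2.78%).

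These calls depended on single animals. In the 16 fits with 1 control animal left out, 4 to 16 genes were called and 129 to 443 had an adjusted p under 0.05 in edgeR. The called genes were 4 in all 16 fits and 30 in at least 1, and 95 of the 321 genes (45 higher, 50 lower) kept an adjusted p under 0.05 in all 16. The count of called genes went from 6 to 11, 10 and 13 without animals 101, 107 and 108 of week 4, and to 15, 11 and 16 without animals 503, 505 and 508 of week 8. The 321 genes went down to 180 and 129 without animals 102 and 104 of week 4, and to 203 and 190 without animals 502 and 506 of week 8.

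PCA of the 16 control livers set 2 of these animals apart. PC1 held 21.2% of the variance, and along it animal 504 had a score of 72.5 and animal 502 a score of 34.9, while the other 14 animals lay between -19.8 and 8.35. The weeks differed on PC1 with an exact permutation p of 0.044, which was 0.117 after adjustment over 8 library measures. The scores of animals 502 and 504 were then left out, on axes still fitted to all 16 animals. The difference on PC1 was then 5.25 in place of 19.8 (exact permutation p = 0.186). PC2 held 12% of the variance and had scores of -42.4 to 11.3 at week 4 and -6.63 to 25.8 at week 8, overlapping between the weeks. The mean score was -10.3 ± 17.8 for week 4 animals and 10.3 ± 9.19 for week 8 animals (SD over 8 animals each; two-sided exact permutation p = 0.00699, adjusted p = 0.0286). Without the scores of animals 502 and 504 on the same axes, the difference on PC2 was 23.8 in place of 20.6 (exact permutation p = 0.00633).

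**Figure D3:**
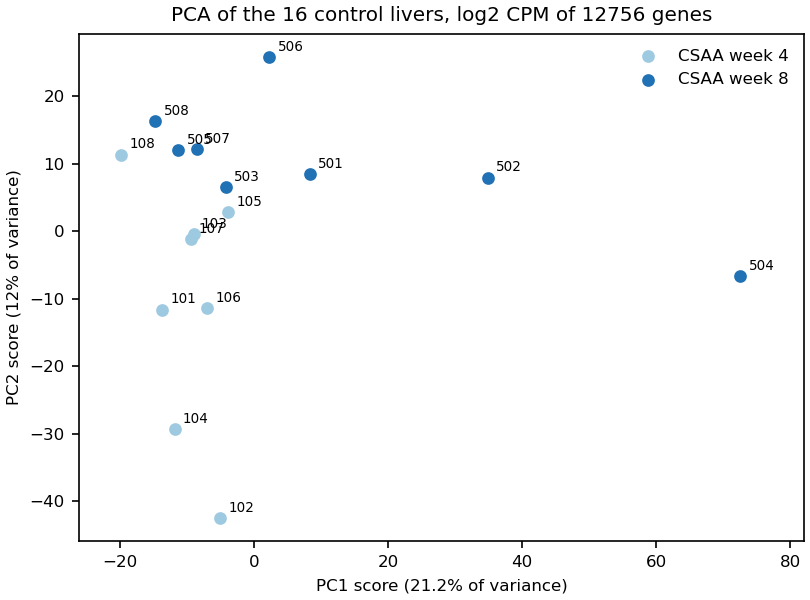
PC1 and PC2 scores of the 16 control livers from mean centered log2 CPM of 12756 genes, with animal numbers. Animals 504 and 502 are apart on PC1, and the week 8 animals lie higher on PC2 in the mean (10.3 against -10.3) with overlap.

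Animals of the same week were only slightly more alike than animals of different weeks. Pearson's r of log2 CPM across the 12756 genes, which are not independent replicates, had a median of 0.977 within week 4, 0.979 within week 8 and 0.975 between the weeks (0.979 within week 8 and 0.976 between without animal 504). Animal 504 was the least like its own group with a mean r of 0.965. It was the highest of the 16 animals in 2214 genes (17.4%). A large share of highest values was also found for animal 102 of week 4, with 1864 genes (14.6%). The 163 genes were chosen as higher at week 8, and in all of them the highest animal was one of week 8. Animal 504 was the highest in 61 of them, and each other animal of week 8 in 8 to 23. The median SD of log2 CPM was 0.275 at week 4 and 0.247 at week 8, and the SD was larger at week 8 in 43.6% of the genes, or in 36.1% without animal 504.

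The position of the control animals between the diets was calculated to see whether the time step went towards the steatohepatitis profile. A diet axis was defined from the 16 animals of week 12 alone, with the 3818 genes called between CDAA and CSAA there (2651 higher on CDAA), where 0 is the CSAA mean and 100 the CDAA mean of week 12. The controls of week 4 lay between -8.97 and 0.485 with a median of -2.59, and those of week 8 between -8.93 and 47.9 with a median of 0.343. Animals 504 and 502 were at 47.9 and 21.3, and the other 6 animals of week 8 were at 2.73 or below. The means were -2.81 ± 2.9 (SD, n = 8) and 6.79 ± 19 (SD, n = 8), a difference of 9.59 with a two-sided exact permutation p of 0.205. Without animal 504 the difference was 3.72 (exact permutation p = 0.389). Leaving out animal 508 instead, one of the lowest of week 8, gave 11.8 (exact permutation p = 0.0497). At week 12 of CSAA animal 908 was at 40.2 and the median was -6.12. On CDAA animal 303 of week 4 was at 16, and the medians were 70, 86.3 and 104 at weeks 4, 8 and 12.

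**Figure D4:**
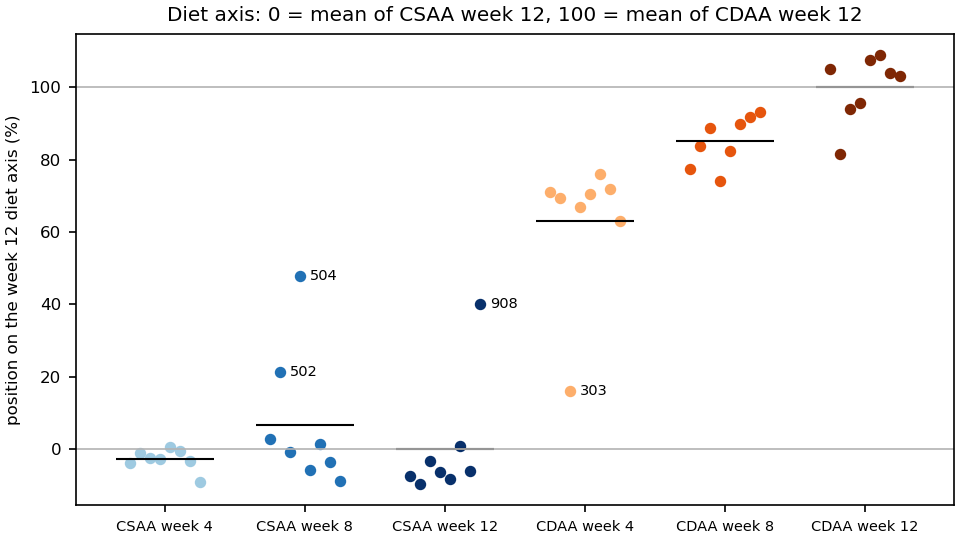
Position of each animal (points) on the diet axis in percent (y axis) for the 6 groups (x axis), with lines for the group means (n = 8); 0 and 100 are the week 12 means of CSAA and CDAA. Animals 504 and 502 lie at 47.9 and 21.3, while the other 14 controls of weeks 4 and 8 lie between -8.97 and 2.73.

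The same time step on CDAA, in other animals, was much larger. There, 640 genes (5.02%) were called, and 6433 genes (50.4%) had an adjusted p under 0.05, with 2619 (20.5%) higher and 3814 (29.9%) lower at week 8. The median absolute log2 fold change was 0.315 on CDAA and 0.14 on CSAA. The median SE was 0.127 and 0.129, but both come from the fit in which all groups share the estimate of the spread. Their likeness therefore does not show that the animals of the 2 diets were equally spread. Among the 100 most abundant genes, 64 changed on CDAA and 2 on CSAA at an adjusted p under 0.05. The CDAA fold changes were related to gene length (Spearman's rho of 0.567 across 12756 genes), which those on CSAA were not (rho of -0.031). With the trend on gene length removed in each animal, 423 genes were called on CDAA and 18 on CSAA. The share of higher genes on CDAA also depended on the scaling, with 5090 higher and 1648 lower genes at an adjusted p under 0.05 for library size alone.

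Whether a gene's time step differed between the diets was tested directly as the interaction of diet and week, which shares the control animals with the comparison above. It was called for 542 genes (4.25%). In these genes the median absolute log2 fold change was 0.261 on CSAA and 0.977 on CDAA, and the CDAA change was the larger one in 477. These values are a description only, since the genes were chosen for a difference between the 2 changes. Over all 12756 genes the medians were 0.14 on CSAA and 0.315 on CDAA. Of the 6 genes called on CSAA, the 4 that rose were among the 542. Their rise on CSAA, by which they were chosen, is part of this difference. For the gene with the largest rise, the difference went from -4.69 to -2.55 without animals 502 and 504 and was no longer called (adjusted p = 0.0469, edgeR). ENSRNOG00000013464 had a difference of -2.63 ± 0.379 (SE) on the log2 scale (CDAA change minus CSAA change; adjusted p = 1.03e-06, edgeR), and ENSRNOG00000016219 of -1.57 ± 0.326 (SE; adjusted p = 0.000205, edgeR). For the genes that fell, the difference was 0.53 ± 0.334 (SE; adjusted p = 0.228, edgeR) in ENSRNOG00000036942 and 0.84 ± 0.305 (SE; adjusted p = 0.0297, edgeR) in ENSRNOG00000000503, and neither was called.

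The genes that changed on CSAA were then looked up in 2 comparisons that share no animal with them. Of the 163 genes higher at week 8 on CSAA, 21 (12.9%) were higher and 52 (31.9%) lower at week 8 on CDAA, where all genes had 20.5% and 29.9%. Of the 158 lower genes, 8 (5.06%) were higher and 75 (47.5%) lower on CDAA. In the comparison of CDAA with CSAA at week 12, where 35% of all genes were higher and 41.9% lower on CDAA, 96 (58.9%) of the 163 genes were higher and 49 (30.1%) lower. Of the 158 genes, 12 (7.59%) were higher and 105 (66.5%) lower. These shares are a description, and they were not tested against all genes.

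The split of the genes that rose turned without animal 504. With it left out, and with the TMM factors kept, 104 genes were higher and 111 lower at week 8 on CSAA, of which 85 and 97 were also among the 163 and 158 genes. Of the 104 genes, 26 (25%) were now higher and 63 (60.6%) lower on CDAA at week 12. Of the 111 genes, 23 (20.7%) were higher and 51 (45.9%) lower. All genes had 35% higher and 42% lower in this fit. In the time step on CDAA, 4 (3.85%) of the 104 genes were higher and 64 (61.5%) lower, where all genes had 21.1% and 30.1%. Animal 504 was also the library to which the TMM factors refer. With new TMM factors after leaving it out, 156 genes were higher and 91 lower on CSAA, and 47 (30.1%) of the 156 were higher and 82 (52.6%) lower on CDAA at week 12, where all genes had 38.3% and 37.6%. In the 15 fits that leave out another control animal, 45.8 to 72% of the genes that rose were higher and 17.4 to 40.2% lower on CDAA at week 12. In each of these 15 fits more of the genes that rose were higher than lower, and among the single control animals of weeks 4 and 8 the direction turned without animal 504 alone.

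**Figure D5:**
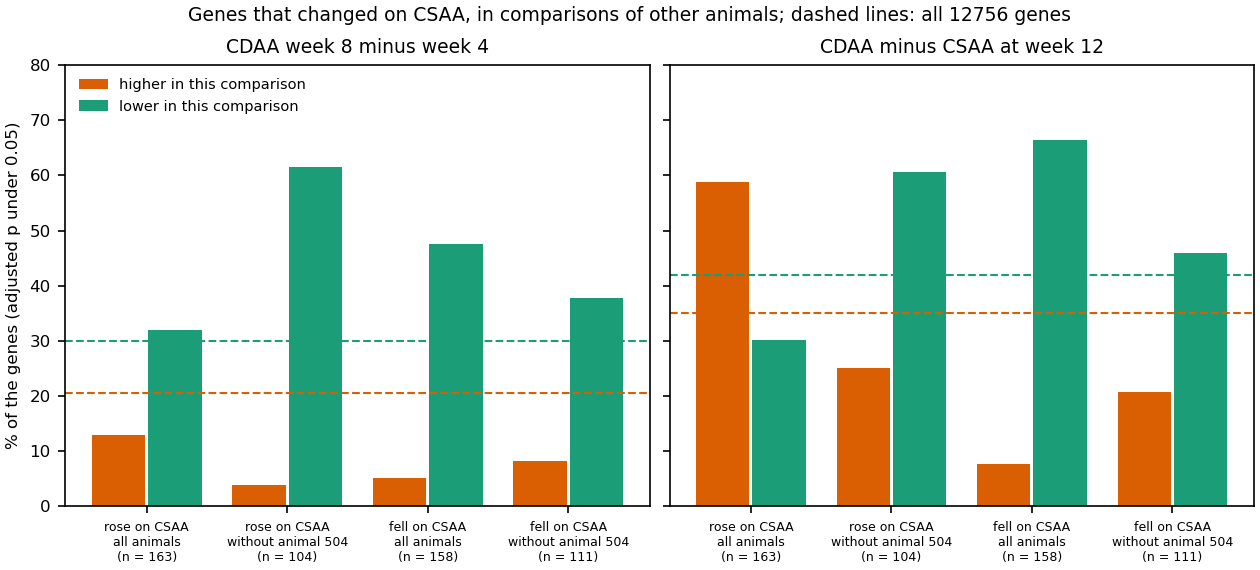
Percent of the genes that rose or fell on CSAA from week 4 to week 8 (x axis, with all animals and without animal 504 at unchanged TMM factors) that were higher or lower at an adjusted p under 0.05 in the time step on CDAA (left) and in CDAA against CSAA at week 12 (right); dashed lines are all 12756 genes. At week 12, the genes that rose go from 58.9% higher and 30.1% lower to 25% higher and 60.6% lower without animal 504.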

How the data were processed

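RNA of 48 rat livers was sequenced as single-end reads from a stranded mRNA library. The authors used STAR for alignment to Rnor_6.0 and featureCounts for reads per gene of Ensembl, and the counts were deposited as raw values. Whether counting used the strand is not given in the sources used here, so reads of overlapping or antisense genes cannot be told apart. RPKM values of the authors, scaled to gene length and reads on genes, were deposited too and served here for 2 alternatives and for gene length (ratio of counts to RPKM). All columns were assigned by their names, and 0 columns of per-sample values were left over.

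The test was edgeR 4.0.16 under R 4.3.3 (TMM, quasi-likelihood, 1 coefficient per diet and week, Benjamini-Hochberg adjustment) on 12756 of 32662 genes, those reaching 1 CPM (here without TMM factors) in 5 or more of the 8 animals of any group. Called genes had an adjusted p under 0.01 and a change of 1 or more on the log2 scale, as in the paper, and a second rule was an adjusted p under 0.05 alone. The fold changes and SE are from this fit, and intervals are 95% intervals. PCA and correlations used log2 CPM with a prior count of 2. Means of 8 and 8 animals were compared by exact two-sided permutation tests over 12870 splits. Scripts were tested on simulated data. The compared libraries held 13619274 to 21246676 reads on genes. Whether counting error or the spread between animals limits the precision more was not tested. In the main fit, the p-values rest on a spread between animals estimated over all groups of both diets, not the compared animals alone. The permutation tests used the compared animals only.

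Named were to be genes with a symbol called in the fit of all animals and in each of the 16 fits with 1 control animal left out, with the largest change first. Since 0 identifiers matched a symbol, the rule was applied without that part, at most 2 genes each way are printed by identifier, and the gene lists and cell type markers that had been chosen could not be used. The members and lists were chosen with earlier results of these data known.

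Alternatives were limma-voom and voom with quality weights (limma 3.58.1), DESeq2 1.42.0 without independent filtering, other normalizations and filters, the compared animals alone, a test against the fold threshold, log2 of RPKM plus 0.1 or 1, removal of the gene length trend, and leaving out each animal. Fits without animals 502 and 504, without animals 303, 504, 908 and 1102, without animal 504 at unchanged TMM factors and with animal 304 as TMM reference, the PCA scores and interactions without animals 502 and 504, and the other settings of the diet axis, were added after the data were seen. The diet axis is the projection of log2 CPM of the genes called in the 16 week 12 animals onto their mean difference between the diets.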

Additional observations from a re-analysis of the deposited data

Results flagged for a closer look

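In 28 groups of 8 values (library measures, PCA scores, diet axis and the CPM of the 6 called genes at each week), 3 had a highest or lowest animal far from the others by Dixon's test, where chance gives about 1 in 20, or 1.4 of 28. Animal 504 of CSAA week 8 had a TMM factor of 1.007 and a mean r with its own group of 0.96473. Animal 108 of CSAA week 4 was at -8.97 on the diet axis, while animal 508 of CSAA week 8 was at -8.93 without being flagged. Animal 504 at 47.9 was not flagged on this axis either. The test takes the gap to the next animal, which was animal 502 at 21.28.

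The change from week 4 to week 8 differed between the diets in 542 genes by the interaction of diet and week in edgeR. It shares the control animals with the comparison on CSAA. For genes chosen by their rise on CSAA, that rise enters the difference, which is therefore no independent evidence on them. Among the 4 genes that rose on CSAA and were called, the difference (CDAA change minus CSAA change, log2) was -4.692 in the gene with the largest rise (adjusted p = 0.000997, but -2.552 with an adjusted p of 0.0469 and no call without animals 502 and 504), -2.628 in ENSRNOG00000013464 (adjusted p = 1.03e-06), -1.571 in ENSRNOG00000016219 (adjusted p = 0.000205) and -1.351 in the 4th gene (adjusted p = 0.000116).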

How the results depend on the processing

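Against 6 called genes on CSAA (4 higher, 2 lower) and 321 at an adjusted p under 0.05, DESeq2 gave 60 (56, 4) and 579, library size alone 13 (12, 1), quality weights 10 with 5 lower, the compared animals alone 1 (1, 0) and 38, and the test against the fold threshold 0 (0, 0) and 0, with 6 on CDAA and 0 for the interaction. RPKM plus 0.1 gave 14 with 12 higher, and RPKM plus 1 gave 0 lower, 195 on CDAA and 215 for the interaction. Without the length trend there were 18 with 15 higher, 423 on CDAA and 243 for the interaction. RLE size factors gave 1 lower gene, no filter 1 lower and 213 at an adjusted p under 0.05, and at least 5 CPM gave 388 on CDAA. Of the alternatives added later, leaving out animals 502 and 504 gave 1 lower and 184, leaving out animals 303, 504, 908 and 1102 gave 19 with 17 higher and 536, and animal 504 left out at unchanged TMM factors or animal 304 as TMM reference gave 1 lower gene each. Leaving out 1 animal gave 4 to 16 called genes (3 to 12 higher, 1 to 5 lower), 129 to 443 at an adjusted p under 0.05, 481 to 700 on CDAA, 421 to 641 for the interaction and 3.72 to 11.8 for the diet axis difference. The causes were not tested. limma-voom called 6 genes with 214 at an adjusted p under 0.05, of which 196 were among the 321, and DESeq2 shared 319. The 6 of limma-voom hold 5 of the 6 of edgeR, without the gene with the largest rise. None of the 6 called genes changed its direction under the settings run. No paired analysis was possible because the groups share no replicate numbers. The median SE was 0.303 on the log2 scale in the lowest abundance part and 0.0959 in the highest, and the share of counting error in it was not tested.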
